A study of Mus musculus with 12 samples.

Results

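Intermediate filaments of glia and of neurons were followed through 8 mouse genes: Nes, Vim and Gfap, which encode nestin, vimentin and the glial fibrillary acidic protein, and Nefl, Nefm, Nefh, Prph and Ina, which encode the light, medium and heavy neurofilament subunits, peripherin and alpha-internexin. The 8 were picked by symbol from the 16617 genes present in both deposited count tables, and all 8 had counts in every library. They were proposed with earlier results of these data known: the levels of Nes and Vim in neurites against soma had drawn attention, so values of the 8 in that contrast are given below as a description with no test. The genotype contrasts were tested with p-values adjusted over all genes, but they are not independent of how the genes were proposed.

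Dorsal root ganglion (DRG) cells, which hold the sensory neurons of the body wall and limbs with their glia, were taken from adult C57B6 mice, 1 mouse per culture, and grown for 3 days on inserts with 1 µm pores coated with poly-L-lysine and laminin. Neurites pass through such pores while cell bodies stay above, and total RNA depleted of ribosomal RNA was sequenced from the soma side and the neurite side. The 4 groups of 3 libraries were GAR+/+ soma and GAR+/+ neurites, called WT here, and GAR+/- soma and GAR+/- neurites, called het. The series concerns nucleolin, but the labels do not say what the GAR allele changes, so the counts of Ncl, its gene, could not check the genotype labels: Ncl stood at 218 to 239 CPM (counts scaled to library size) in WT soma and 251 to 290 in het soma, and at 322 to 463 CPM in WT neurites and 332 to 426 in het neurites. Library totals ran from 14965973 to 32434916 counts, and the 8 genes took 0.675% to 1.05% of them. In bulk samples such as these, fewer cells of a type and less RNA per cell cannot be told apart.

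All 10 pan-neuronal markers were detected in every library, with a summed level of 7799 to 9539 CPM in WT soma, 9084 to 10411 in het soma, 6022 to 8290 in WT neurites and 8114 to 9807 in het neurites. Markers of other cells were present too, 8 of 8 for satellite glia and 7 of 8 for Schwann cells, with sums of 994 to 1164 and 906 to 960 CPM in WT soma. The neurite side was not free of RNA that is normally nuclear: Malat1, Neat1, Meg3, Rian, Miat and Snhg11 summed to 6281 to 10184 CPM in WT neurites against 8117 to 10693 in WT soma, and to 4855 to 10144 in het neurites against 8276 to 9215 in het soma. The part of cell bodies or nuclei on the neurite side in the results below was not tested.

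Intermediate filaments are rope-like polymers that give cells mechanical strength, and each cell type builds them from its own subunits. Neurofilaments form from the light subunit together with the medium and heavy subunits, alpha-internexin and, in the peripheral nervous system, peripherin, and they set the calibre of large axons. Vimentin is the filament protein of mesenchymal cells and immature glia, nestin copolymerizes with it in dividing and immature cells, and the glial fibrillary acidic protein is made by astrocytes and by some Schwann cells and satellite glia, more so after injury. Vimentin is also made by injured sensory axons, where its mRNA can be translated locally.

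Upstream sequence of a pair of genes that were higher in neurites, Nes and Gfap, and of Prph, which was lower there, is shown so that the starts of genes with opposite patterns can be compared. It is RefSeq sequence of GRCm38.p6, which had a window for 5 of the 8 genes, and annotated exons were left out. Each window shown ends just before an annotated exon. For Nes this exon is that of the intron-retaining Nes-202, and the coding Nes-201 begins at 87971093. For Gfap it is that of Gfap-202, which was not counted, and the counted Gfap-201 begins at 102897131. The windows are chr3:87970843-87971077 on the plus strand for Nes, chr11:102897201-102897450 on the minus strand for Gfap and chr15:99054924-99055173 on the plus strand for Prph, and capitals mark a TATAAA motif.
Nes: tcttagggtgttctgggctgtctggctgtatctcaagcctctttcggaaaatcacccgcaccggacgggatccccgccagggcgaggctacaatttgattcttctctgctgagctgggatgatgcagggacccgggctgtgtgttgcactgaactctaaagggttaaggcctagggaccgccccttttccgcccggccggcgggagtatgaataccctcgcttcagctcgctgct
Gfap: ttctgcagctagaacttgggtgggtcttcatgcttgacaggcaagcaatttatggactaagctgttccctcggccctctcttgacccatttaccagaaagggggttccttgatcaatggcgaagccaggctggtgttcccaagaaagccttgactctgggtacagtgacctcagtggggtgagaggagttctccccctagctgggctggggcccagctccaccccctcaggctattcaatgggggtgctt
Prph: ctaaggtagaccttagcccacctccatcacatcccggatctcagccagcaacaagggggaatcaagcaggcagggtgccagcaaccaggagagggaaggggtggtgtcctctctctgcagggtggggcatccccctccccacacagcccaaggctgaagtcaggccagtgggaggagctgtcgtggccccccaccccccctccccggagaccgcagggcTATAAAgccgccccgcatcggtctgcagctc
A search on both strands for TATAAA (the TATA box), for CCAAT (the motif of the factor NF-Y), for TTCNNNGAA (the STAT-type palindrome) and for TGANTCA (the AP-1 type), none of which overlaps another, found 1 match, the TATAAA that begins 31 bases before the start site of Prph. Among 32851 RefSeq windows of 250 bases, 12.4% held TATAAA, 33.8% held CCAAT, 7.02% held TTCNNNGAA and 6.75% held TGANTCA. The window of Ina, chr19:47014431-47014680, held none of them, and that of Vim lay wholly in an annotated exon and is not shown.

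The counts came from 12 of the 21 annotated transcripts of the 8 genes (GENCODE annotation of GRCm38). Nes (chromosome 3, 87971078 to 87980451) was counted through Nes-201, its coding transcript of 6126 bases in 4 exons, which held 96.3% to 98.9% of its counts, and through the intron-retaining Nes-202. Vim (chromosome 2, 13573927 to 13582826) was counted through the coding Vim-201, with 94.9% to 95.6% of its counts, and the intron-retaining Vim-203 and Vim-204. The make-up by transcript was thus nearly constant, and the gene-level values follow the coding transcript. Gfap (chromosome 11, 102887336 to 102900912) was counted through Gfap-201 and Nefm (chromosome 14, 68082590 to 68124846) almost wholly through Nefm-201. Nefl (chromosome 14, 68083863 to 68089095), Nefh (chromosome 11, 4938754 to 4948064) and Ina (chromosome 19, 47014698 to 47025327) have 1 transcript each. Prph (chromosome 15, 99055174 to 99058978) was counted through Prph-202, whose exons share 99.8% of their bases with Prph-204, which was not in the tables. How reads shared by such transcripts were assigned is not stated in any source used here, so the level of Prph may cover only a part of its mRNA. The same holds for Nes, since Nes-201 shares 97.3% of its bases with Nes-203, which was not in the tables, and for the ranks of both genes. Nefm-202 runs for 1108 exonic bases along Nefl-201 on the opposite strand, and it held at most 0.944% of the Nefm counts in any library.

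Nefl was the most abundant of the 8 in soma on a per-length scale, CPM divided by transcript length in kilobases. In WT soma it stood at 1483 ± 119 (SD, n = 3) CPM per kb, followed by Vim at 700 ± 73.5 and Nefh at 412 ± 50.3, with Nefm at 137 ± 9.94, Prph at 27.4 ± 2.65, Ina at 15.5 ± 4.55, Nes at 15.0 ± 3.31 and Gfap at 0.366 ± 0.143. Ina and Nes lay within each other's spread. In WT neurites Vim, at 1168 ± 151 CPM per kb, and Nefl, at 1052 ± 216, stood side by side, with Vim above Nefl in 2 of 3 libraries, and Nes at 58.7 ± 23.3 passed Prph at 19.7 ± 2.75 and Ina at 13.1 ± 2.42. In het neurites Nefl, at 1235 ± 216, lay above Vim, at 821 ± 124, in all 3 libraries. By plain CPM, Nefl ranked 7th of all 15990 genes tested in both soma groups and 9th in both neurite groups, whereas Nes moved from rank 2597 in WT soma to rank 589 in WT neurites.

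Taking the 8 mRNAs as one pool per length, Vim made up 25.1% ± 2.51 (SD, n = 3) of it in WT soma and 42.9% ± 6.77 in WT neurites, and 17.9% ± 2.82 in het soma and 32.1% ± 5.98 in het neurites. The share of Nefl ran the other way, at 53.1% ± 1.74 and 38.2% ± 4.28 in WT soma and neurites, and 58.9% ± 2.82 and 47.8% ± 5.28 in those of het. Because shares sum to the whole, a higher share of one lowers the others. The neurofilament subunits stood in similar proportions to each other. Per length, Nefh stood at 27.7% ± 1.44 of Nefl in WT soma and 29.8% ± 2.15 in WT neurites, and at 26.4% ± 0.906 in het soma and 26.5% ± 3.25 in het neurites. Nefm stood at 9.30% to 10.6% of Nefl in the group means, within the spread of the libraries.

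**Figure D1:**
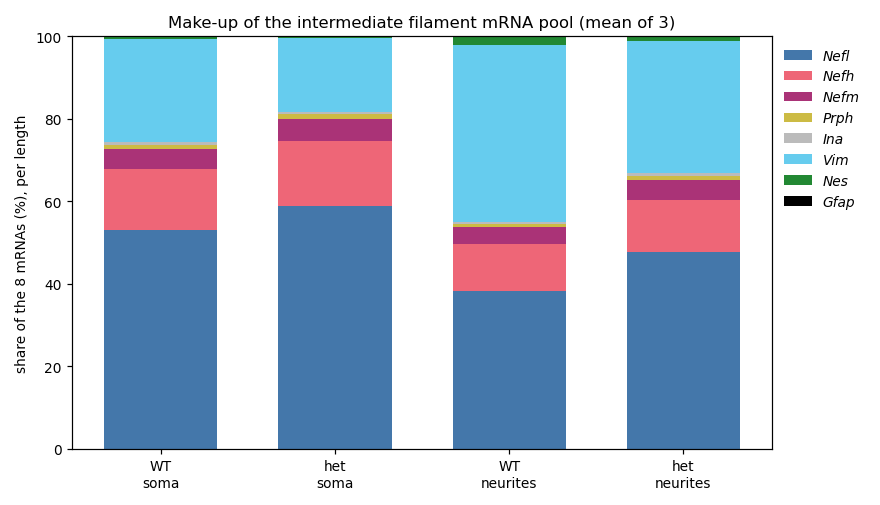
Make-up of the pool of 8 intermediate filament mRNAs, as stacked mean shares (%, CPM per kb, 3 libraries per group) for each group on the x axis. Vim takes 42.9% of the pool in WT neurites and 17.9% in het soma, and Nefl takes 38.2% and 58.9% there.

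Nes was higher in neurites than in soma in both genotypes. Its 3 libraries, in order of their number, stood at 105, 75.7 and 71.1 CPM in WT soma and at 274, 503 and 246 CPM in WT neurites. In het cultures the values were 53.4, 49.0 and 71.1 CPM in soma and 184, 183 and 130 CPM in neurites. No neurite library overlapped a soma library of the same genotype, and the WT neurite library numbered 2 stood highest. The fitted log2 difference was 2.02 ± 0.29 (SE), or 4.07-fold, in WT and 1.52 ± 0.28, or 2.86-fold, in het. Over the 4 groups the order was WT neurites, het neurites, WT soma and het soma; the lowest WT soma and the highest het soma libraries met at 71.1 CPM after rounding, and the other neighbours did not overlap.

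Vim followed with a smaller difference from a far higher level. It stood at 1262, 1561 and 1428 CPM in WT soma and at 2713, 2145 and 2244 CPM in WT neurites. In het cultures it stood at 981, 1007 and 1087 CPM in soma and at 1960, 1584 and 1476 CPM in neurites. Neurites lay above soma in each genotype without overlap, by 0.74 ± 0.13 on the log2 scale (1.67-fold) in WT and 0.71 ± 0.13 (1.63-fold) in het. In the order WT neurites, het neurites, WT soma, het soma, the 2 middle groups overlapped.

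Gfap was scarce everywhere. Its raw counts were 14, 29 and 28 in WT soma, 4, 10 and 2 in het soma, 370, 36 and 64 in WT neurites and 15, 21 and 16 in het neurites. One library, WT neurites 1, stood apart at 25.9 CPM, against 2.42 and 2.49 CPM in the other WT neurite libraries, 0.66 to 0.806 in het neurites, 0.538 to 1.25 in WT soma and 0.0917 to 0.388 in het soma. Each neurite group lay above its own soma group without overlap, while WT soma and het neurites overlapped. The neurite excess in WT was 3.38 ± 0.94 on the log2 scale (10.4-fold), and 1.34, or 2.53-fold, without WT neurites 1; in het it was 1.89 ± 1.34. The deposited tables hold only transcripts with at least 5 counts in 3 or more of their 6 libraries, and in soma Gfap met this through the WT libraries, since 1 of the 3 het soma libraries reached 5 counts.

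The mean levels of the neurofilament mRNAs were lower in neurites than in soma. Nefl stood at 5214, 5274 and 4552 CPM in WT soma and 3325, 4374 and 2967 CPM in WT neurites, without overlap. In het cultures it stood at 5688, 6615 and 4823 CPM in soma and 3508, 4956 and 4062 CPM in neurites, and these overlapped. Every same-numbered neurite library lay below its soma library, and the log2 differences were -0.50 ± 0.17 in WT and -0.45 ± 0.17 in het. Nefh, whose product carries the long phosphorylated tail of the neurofilament, stood at 1801, 1716 and 1418 CPM in WT soma and 1234, 1582 and 958 CPM in WT neurites. The het values of Nefh were 1735, 2035 and 1566 CPM in soma and 1184, 1654 and 1093 CPM in neurites. The groups of Nefh overlapped in both genotypes, with log2 differences of -0.39 ± 0.19 in WT and -0.44 ± 0.19 in het.

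Nefm, the medium subunit, ranged from 420 to 483 CPM in WT soma, 462 to 646 in het soma, 263 to 474 in WT neurites and 297 to 540 in het neurites, all overlapping, with log2 differences of -0.28 ± 0.23 in WT and -0.34 ± 0.23 in het. Prph, typical of small sensory neurons, stood at 52.5, 55.0 and 45.5 CPM in WT soma and 31.2, 37.6 and 41.3 CPM in WT neurites. In het cultures Prph stood at 52.3, 56.1 and 53.1 CPM in soma and 37.5, 48.3 and 39.5 CPM in neurites. Prph was thus lower in neurites without overlap in both genotypes, by -0.47 ± 0.13 in WT and -0.37 ± 0.12 in het on the log2 scale. Ina showed the smallest differences, -0.25 ± 0.22 in WT and -0.08 ± 0.22 in het, with overlap in both. Over the 4 groups, the order was het soma, WT soma, het neurites and WT neurites for Nefl, Nefm, Nefh and Prph, and het soma, het neurites, WT soma and WT neurites for Ina; neighbours in these orders overlapped for all 5 genes.

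**Figure D2:**
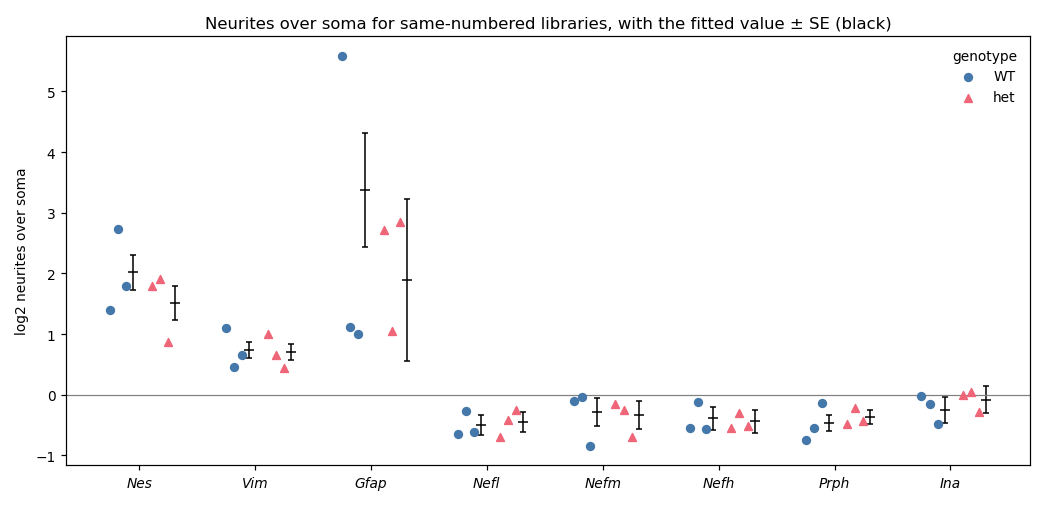
Log2 ratio of neurites over soma for each gene (x axis); coloured points are the 3 same-numbered library pairs of WT (circles) and het (triangles), and black marks are the fitted value ± SE. Nes, Vim and Gfap lie above 0 in all pairs, with 1 WT pair of Gfap at 5.59, and Nefl, Nefm, Nefh and Prph lie below 0 in all pairs.

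In the test over all genes, 495 of 15990 (3.1%) passed in neurites against soma in WT and 102 (0.638%) in het; both Nes and Vim were among them in each genotype, and since this contrast chose them nothing is read from that. With the replicate number as a block, 9.31% of genes passed in WT, and Nefl (-0.51 ± 0.12), Nefh (-0.41 ± 0.12) and Prph (-0.48 ± 0.12) passed beside Nes and Vim, from which again nothing is read. Leaving out 1 library gave 93 to 1081 genes in WT and 0 to 191 in het. Marker sums moved as well: the pan-neuronal sum was 0.29 lower on the log2 scale in WT neurites and 0.11 lower in het neurites, and the satellite glia sum 0.32 and 0.19 higher. Also higher in neurites were the fibroblast sum, by 0.31 and 0.12, the pericyte and muscle sum, by 0.32 in each, and the proliferation sum, by 0.64 and 0.44. The Schwann cell sum was level, at 0.02 in WT and -0.01 in het. The macrophage sum was lower in neurites, with means of 161 and 113 CPM in WT and 202 and 155 CPM in het, soma first. The endothelium means were 106 and 110 CPM in WT and 116 and 97.2 CPM in het, soma first. Relative to the pan-neuronal sum Nefl was still lower in neurites, by -0.22 in WT and -0.34 in het, without overlap. The other neuronal genes overlapped in WT, with Nefm at -0.03, Nefh at -0.12, Prph at -0.19 and Ina at 0.07. In het Nefh (-0.35) and Prph (-0.26) were lower without overlap, and Nefm (-0.26) and Ina (0.02) overlapped. Nes was higher in neurites relative to the sum of each of the 4 non-neuronal or proliferation lists that were higher there, without overlap. These differences were 1.33 to 1.66 in WT and 1.08 to 1.39 in het. Relative to the Schwann cell sum Nes was higher by 1.95 in WT and 1.52 in het, and Vim by 0.72 and 0.70, without overlap. Vim was higher without overlap relative to the satellite glia sum, by 0.41 in WT and 0.50 in het, and to the pericyte and muscle sum, by 0.42 and 0.37. Relative to the fibroblast sum (0.42 and 0.57) and the proliferation sum (0.10 and 0.26) the neurite and soma libraries of Vim overlapped. The part of these cells in the neurite excess of Nes and Vim was not tested.

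**Figure D3:**
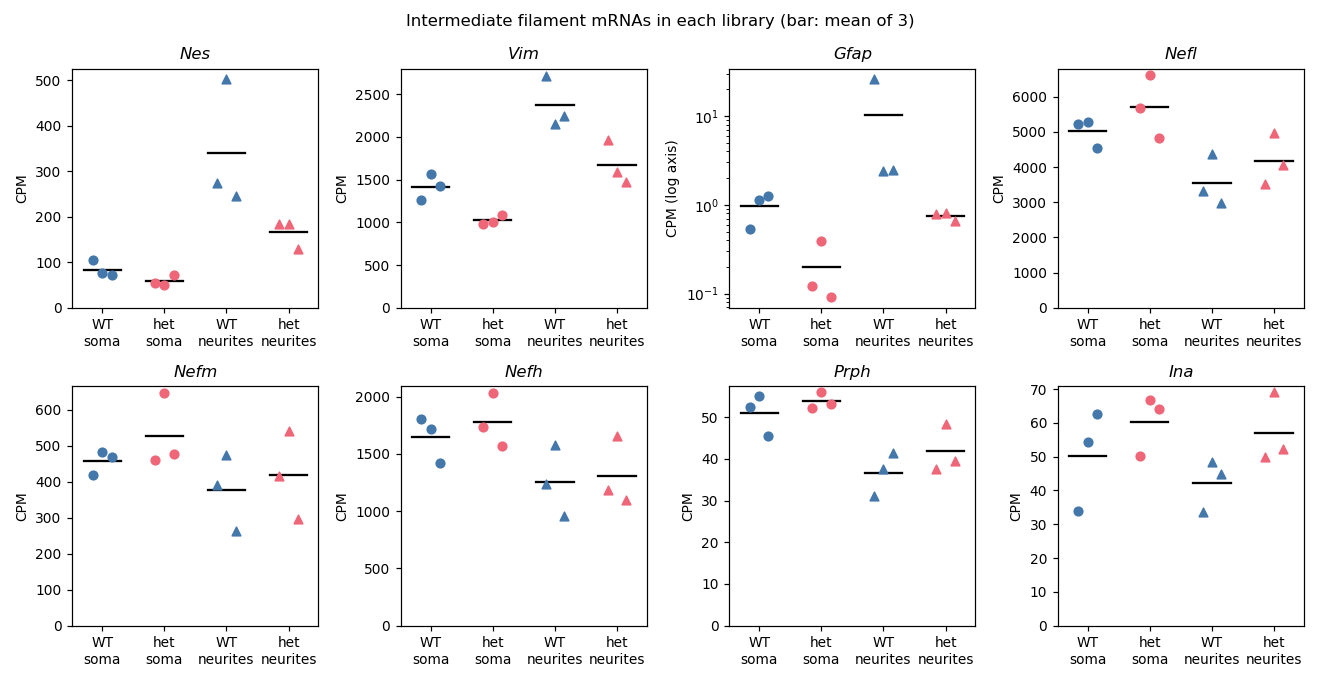
CPM of each gene (y axis, linear from 0 except for Gfap, which has a log axis) in the 3 libraries of each group (x axis), with the mean as a bar. Nes and Vim are highest in WT neurites (means 341 and 2368 CPM) and lowest in het soma (57.8 and 1025 CPM), and 1 WT neurite library of Gfap stands at 25.9 CPM.

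Het was compared with WT to ask how the GAR genotype goes with RNA on each side of the insert. In neurites Vim fell in het, by -0.50 ± 0.13 on the log2 scale or 1.41-fold, at an adjusted p of 0.0498, and the 3 libraries of each genotype did not overlap. Nes was 2.06-fold lower (-1.04 ± 0.28, adjusted p = 0.0717) and Gfap 13.3-fold lower (-3.74 ± 0.97, adjusted p = 0.0721), also without overlap, but neither passed. The mRNAs of the neuronal subunits were slightly higher in het, and none passed: Ina 0.43 ± 0.22 (adjusted p = 0.282, no overlap), Nefl 0.23 ± 0.17, Prph 0.18 ± 0.13, Nefm 0.15 ± 0.23 and Nefh 0.06 ± 0.19. The 95% intervals of the fold were 0.92 to 1.5 for Nefl and 0.789 to 1.38 for Nefh. The pan-neuronal sum was itself 0.37 higher on the log2 scale in het neurites. Relative to that sum Nefl differed by -0.14, Nefm by -0.22, Nefh by -0.31, Prph by -0.19 and Ina by 0.06, all with overlap. One of the 8 genes thus passed, where 3.27% of all genes did (523) and 2.78% did with a lower level in het. Groups did not overlap for 4 of the 8, against 18.3% of all genes, and 3 of these were lower in het, against 10.8% of all genes. Nes and Vim were proposed with their WT neurite levels known, and this contrast uses the same libraries, so nothing is read from these counts.

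The call on Vim in neurites lay at the threshold. It was lost without WT neurites 1 (adjusted p = 0.2), WT neurites 3 (0.0964), het neurites 2 (0.179) or het neurites 3 (0.204), and with DESeq2-type size factors (0.0531), while the log2 difference stayed between -0.63 and -0.39. The count of 523 genes fell to 0 without WT neurites 3, het neurites 2 or het neurites 3 and to 50 without WT neurites 1, and became 1767 without WT neurites 2 and 1110 without het neurites 1. For Nes the difference was -0.65 without WT neurites 2, and DESeq2 gave it an adjusted p of 0.0016, calling 7.56% of all genes. For Gfap the difference was -1.70 ± 0.44 (adjusted p = 0.0991) without WT neurites 1, and it passed without WT neurites 2 (adjusted p = 0.0202).

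In soma the same genes were lower in het. Vim was 1.38-fold lower (-0.47 ± 0.13, adjusted p = 0.182), without overlap between genotypes. Nes was 1.45-fold lower (-0.54 ± 0.28, adjusted p = 0.626), with the genotypes meeting at 71.1 CPM. Gfap was 4.74-fold lower (-2.24 ± 1.29, adjusted p = 0.67), without overlap. In soma Gfap met the count filter through its WT libraries, so nothing is read from its soma difference or the lack of overlap. The 5 neuronal genes differed by 0.08 to 0.26 on the log2 scale, all higher in het and all overlapping. Relative to the pan-neuronal sum, which was 0.20 higher in het soma, these 5 differed by -0.11 to 0.10, with overlap. No gene of the 15990 passed in edgeR's test (0%), although 1464 had an unadjusted p under 0.05 and DESeq2 called 320 (2%). With the replicate number as a block, which gave each number 1 effect shared by all 4 groups, Vim fell with an adjusted p of 0.0408. In that fit 3.25% of all genes passed (520). Same-numbered libraries did not deviate together between all of the groups that share the effect. The difference of Gfap was -3.08 without the het soma library that held 10 counts.

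The authors' deposited table, which tests single transcripts within each compartment, called more of them. In soma it put Gfap-201 (log2 fold change -2.23), Nes-201 (-0.53), Vim-201 (-0.45) and Vim-204 (-0.47) past a false discovery rate of 0.05. These were 4 of the 12 transcripts, where 4.24% of all transcripts passed. Gfap-201 met the count filter in soma through its WT libraries, so nothing is read from its place among them. In neurites the authors' deposited table passed Gfap-201 (-2.79), Nes-201 (-0.97), Vim-201 (-0.48), Vim-203 (-0.58) and Vim-204 (-0.59), 5 of the 12, where 3.02% passed. No transcript of Nefl, Nefm, Nefh, Prph or Ina passed there in either compartment. The transcripts called belong to Nes, Vim and Gfap alone, and those of Vim are not separate results. Vim-204 shares 91.4% and Vim-203 90.3% of its bases with Vim-201. Nothing is thus read from these counts of transcripts against the shares of all transcripts.

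**Figure D4:**
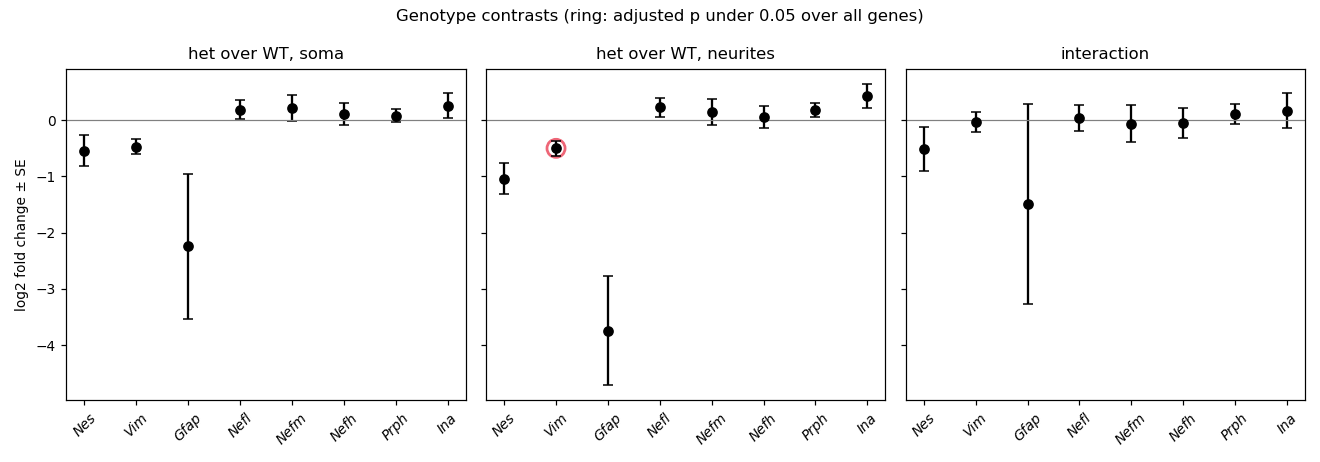
Log2 fold change ± SE of each gene for het over WT in soma and in neurites, and for the interaction of genotype and compartment; a ring marks an adjusted p under 0.05. Vim in neurites, at -0.50, carries the only ring, and the SE of Gfap reaches 1.77 in the interaction.

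The satellite glia, Schwann cell, fibroblast, pericyte and muscle and proliferation lists had lower medians in het beside these genes. The macrophage and endothelium lists did not follow them on both sides. The satellite glia list had a median log2 difference of -0.67 in soma and -0.74 in neurites, the Schwann cell list -0.49 and -0.64, the fibroblast list -0.56 and -0.61, the pericyte and muscle list -0.97 and -1.15, and the proliferation list, with Mki67 and Top2a, -1.16 and -1.37, against 0.01 and -0.01 over all genes tested. The pan-neuronal list stood at 0.19 and 0.39. Of its 10 markers, 1 passed as higher in het neurites, where 3.27% of all genes passed in either direction. With the replicate block 7 of the 10 passed as higher there, and more of all genes passed too, as given below. The macrophage list, with 3 of 6 markers tested, stood at 0.27 and 0.45. The endothelium list, with 4 of 6 tested, stood at 0.14 in soma and -0.19 in neurites. None of the macrophage or endothelium markers passed. In neurites 2 of 8 satellite glia, 3 of 7 Schwann cell, 0 of 6 fibroblast, 2 of 6 pericyte and muscle and 4 of 6 proliferation markers fell in het, where 2.78% of all genes did. With 1 of the 6 neurite libraries left out, none of the satellite glia or Schwann cell markers passed in 3 fits and none of the pericyte and muscle or proliferation markers passed in 4. In soma no gene of any list passed in edgeR's test without the block, as none did over all genes (0%). With the replicate block, 2 of 8 satellite glia, 3 of 7 Schwann cell and 1 of 6 fibroblast markers fell in soma. So did 3 of 6 pericyte and muscle and 4 of 6 proliferation markers, where 3.25% of all genes passed. In neurites the block gave 4, 4, 3, 3 and 5 in the same order, and more of all genes passed too, as given below. The summed level of the satellite glia list was 994 to 1164 CPM in WT soma against 840 to 928 in het soma, and 1234 to 1386 in WT neurites against 850 to 1142 in het neurites. The Schwann cell sum was 906 to 960 against 775 to 913 CPM in soma and 895 to 993 against 826 to 867 in neurites, and the proliferation sum 436 to 636 against 173 to 256 and 551 to 977 against 237 to 461. The pericyte and muscle sum was 569 to 650 against 470 to 500 CPM in soma and 679 to 864 against 542 to 670 in neurites, and the fibroblast sum 1042 to 1975 against 594 to 1057 and 961 to 2955 against 696 to 1416. None of the markers tested was at 0 in any library. Glul, which made up 43.6% of the satellite glia sum in WT soma and 57.2% in het soma, was not lower in het. It stood at 462 and 503 CPM in soma and 482 and 523 CPM in neurites, WT first. Rgs5, the most abundant pericyte and muscle marker, stood at 339 and 355 CPM in soma and 371 and 446 CPM in neurites. S100b, of the Schwann cell list, stood at 487 and 501 CPM in soma and 368 and 441 CPM in neurites. Below 0 were 5 of 6 pericyte and muscle markers on each side. Of the Schwann cell list, 5 of 7 were below 0 in soma and 6 of 7 in neurites. Relative to the satellite glia sum, the genotype difference of Vim was -0.20 in soma and -0.11 in neurites, with overlap in both, and that of Nes -0.27 with overlap and -0.59 without. Gfap relative to that sum was lower in het, by -2.22 in soma and -2.45 in neurites, without overlap. The soma value of Gfap carries the limit of the count filter given above. Relative to the pericyte and muscle sum Vim was lower by -0.17, with overlap, and -0.22, without. Nes against that sum was lower by -0.24, with overlap, and -0.70, without, and Gfap by -2.20 and -2.56, without overlap. Relative to the proliferation sum Vim was higher in het, by 0.76 and 0.92, without overlap. Relative to the proliferation sum Gfap was lower in het by -1.26 and -1.41, with overlap in both compartments, and Nes was higher, by 0.69 without overlap in soma and 0.44 with overlap in neurites. Against the fibroblast sum Vim was higher in het by 0.36 in soma and 0.51 in neurites, and Nes by 0.29 and 0.03, all with overlap. Gfap against it was lower by -1.66, with overlap, and -1.83, without. Against the Schwann cell sum Vim was lower by -0.32 and -0.34, with overlap. Nes against it was lower by -0.39, with overlap, and -0.82, without, and Gfap by -2.35 and -2.68, without overlap. All these soma values of Gfap carry the same limit. The part of these cells in the differences of Vim, Nes and Gfap was not tested.

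**Figure D5:**
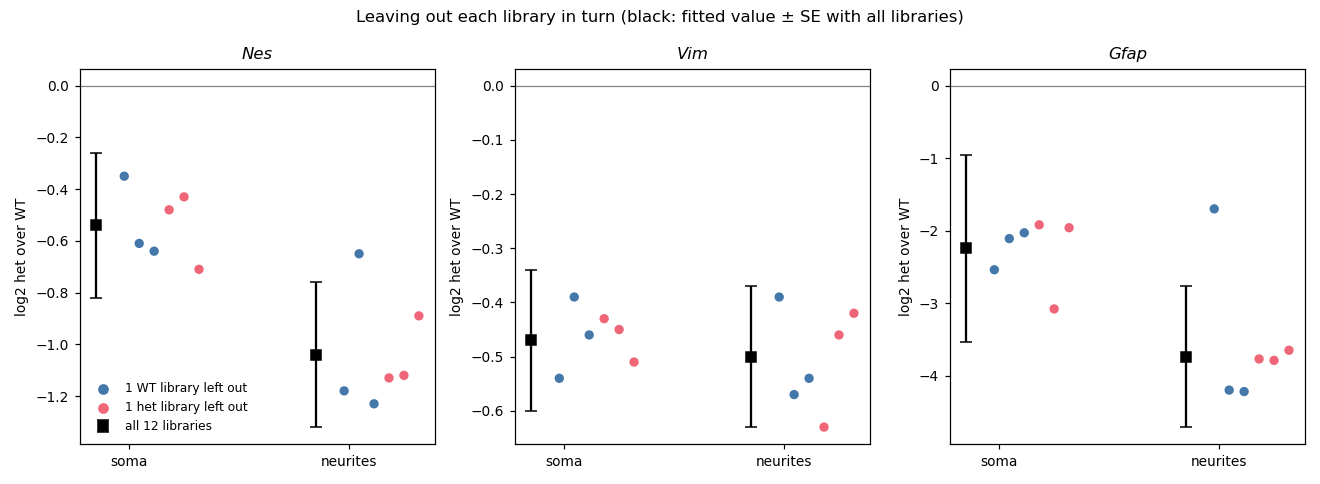
Log2 difference of het over WT for Nes, Vim and Gfap in soma and neurites (y axes differ between panels), with the fitted value ± SE of all libraries (black) and the value with each of the 6 libraries left out (points). All values lie below 0, and Gfap in neurites moves from -3.74 to -1.70 without 1 WT library.

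The interaction asks whether the neurite-to-soma difference itself differed between genotypes. It was -0.51 ± 0.39 on the log2 scale for Nes (unadjusted p = 0.227), -0.03 ± 0.18 for Vim and -1.49 ± 1.77 for Gfap, het minus WT. Gfap turned to 0.54 without WT neurites 1. The 5 neuronal genes lay between -0.06 and 0.17. None of the 8 and no gene at all passed edgeR's test (0%, with 202 genes at an unadjusted p under 0.05, and 0 by DESeq2). The 95% interval of the ratio of folds was 0.744 to 1.28 for Vim and 0.385 to 1.29 for Nes, and both intervals include equal folds.

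Among other intermediate filament genes, 10 of 20 listed were tested. In neurites against soma in WT, 3 were past the threshold, all higher, where 3.1% of all genes passed: Krt80, an epithelial keratin, by 1.14 ± 0.27 on the log2 scale, Des, the desmin of muscle, by 0.84 ± 0.21, and Lmna, which encodes the A-type lamins of the nuclear envelope, by 0.48 ± 0.09. Krt80 and Des were scarce, at 2.37 and 4.53 CPM in WT neurites. Leaving out each of the 6 libraries, Lmna passed in 4 fits (lost without WT soma 1 or 2), Krt80 in 2 (without WT soma 3 or WT neurites 2) and Des in 1 (without WT neurites 2). With the replicate block 4 were higher and 1 lower there, where 9.31% of all genes passed. In het none passed. In het against WT in neurites 2 of the 10 fell, where 2.78% of all genes did: Des, by 1.22 ± 0.22 (adjusted p = 0.018), and Lmnb1, a B-type lamin, by 0.73 ± 0.16 (adjusted p = 0.0296). Both calls were lost without WT neurites 1, WT neurites 3, het neurites 2 or het neurites 3, with adjusted p up to 0.121 for Des and 0.153 for Lmnb1. With the replicate block 1 of the 10 was higher and 3 were lower in het neurites, and more of all genes passed too, as given below. In soma none passed, and Des stood at 2.52 CPM in WT and 0.991 CPM in het (adjusted p = 0.082); with the replicate block 1 of the 10 passed in soma, at a lower level, where 3.25% of all genes passed.

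Of 26 listed genes whose proteins link, transport or regulate filaments, 24 were tested. Cryab, a small heat shock protein that binds desmin and vimentin filaments, was higher in WT neurites than in WT soma, by 0.61 ± 0.15 on the log2 scale (1685 against 1101 CPM), and was the only one past the threshold there, where 3.1% of all genes passed; with a library left out it passed in 2 of 6 fits (without WT neurites 2 or 3). With the replicate block 3 were higher and 1 lower, where 9.31% of all genes passed. Hspb8, another small heat shock protein, rose in het neurites, from 460 ± 72.8 to 662 ± 76.3 CPM (SD, n = 3; log2 0.53 ± 0.12, adjusted p = 0.0354), the only one of the 24 past the threshold in that contrast, where 3.27% of all genes passed. This call, too, was lost without WT neurites 1, WT neurites 3, het neurites 2 or het neurites 3 (adjusted p up to 0.168). With the replicate block 6 of the 24 were higher and 1 lower in het neurites, and more of all genes passed too, as given below. None passed in het against WT in soma, and 1, at a lower level, with the block, where 3.25% of all genes passed. The median log2 difference of the list was 0.18 in neurites and 0.11 in soma, against -0.01 and 0.01 over all genes.

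Genes whose log2 level followed each of the 8 most closely over the 12 libraries, out of 7168 compared, are named as a description; the libraries share their groups and depths. Nes was most like Ccnd1, the gene of cyclin D1 (Pearson r = 0.99), Ddr2, a collagen receptor (0.98), and Mtss1l (0.98). Vim was most like Arhgef26 (0.99), Hsd17b4 (0.98) and Sf3b3 (0.98), and Gfap like Zfp266 (0.97), Irf2bp2 (0.95) and Gabpa (0.93), a likeness that includes the WT neurite library at 25.9 CPM. Among the neuronal genes, Nefl was most like Rimkla, Lynx1 and Pygb (0.98, 0.98 and 0.97), and Nefh like Slc17a7, Opcml and Unc80 (0.98 each). Slc17a7, which encodes a vesicular glutamate transporter, was among the 3 for Nefm too (0.90), after Dnajc18 (0.93) and Lhfpl4 (0.92). Prph was most like Rian, a nuclear RNA, Mrgbp and Gde1 (0.96, 0.96 and 0.95), and Ina like Irgq, Scrt2 and Exoc6b (0.94, 0.93 and 0.93).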

How the data were processed

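RNA from the soma and neurite sides of DRG cultures was sequenced as 12 stranded, ribosome-depleted libraries, per the labels' protocols. The submitters' processing notes name CASAVA 1.8.2, edgeR and the mm10 (GRCm38) build; no source used here names the aligner, the counter or its strand setting. Deposited by the authors were raw counts per transcript in a soma table and a neurite table, with their own log2 fold changes, p-values and false discovery rates; every deposited transcript had at least 5 counts in 3 or more libraries of its table. Rows with no gene name held 0.574% to 0.694% of the counts and were left out, and 24 per-sample columns were not used.

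Counts of the 31420 named transcripts in both tables were summed to 16617 genes. After edgeR's expression filter, 15990 genes were scaled by TMM and fitted as 4 group means with edgeR 4.0.16's robust quasi-likelihood test (R 4.3.3), and p-values were adjusted by Benjamini-Hochberg over all genes at a threshold of 0.05. The test was fitted to simulated counts with known changes. It recovered 10% of genes changed by 0.5 on the log2 scale between genotypes in soma, 12% in neurites and 4% in the interaction. For a change of 2.0 it recovered 94%, 94% and 66%. SE is the log2 fold change divided by the root of the F statistic. CPM uses TMM-scaled totals; levels per length divide each transcript by its length. With libraries of 14965973 counts and more, 3 counts, the limit that a count of 0 allows, equal at most 0.21 CPM; intervals and limits cover counting error or library spread only.

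The 8 genes and all lists were chosen with earlier results of these data known. The named genes are the 8, the 3 genes most like each by Pearson r of log2(CPM + 1) among those with a mean of at least 10 CPM, and, from each list, up to 6 past the threshold or up to 2 where none passed. The labels describe 3 independent repeats and number the libraries, but do not say what a number shares. Correlations of same-numbered deviations were 0.58, 0.59 and 0.40 for WT soma with WT neurites. For WT with het soma they were 0.42, 0.56 and 0.21, so same-numbered libraries were taken to go together in both comparisons. In the genotype contrasts the replicate block gave each number 1 effect shared by all 4 groups. In neurites against soma and the interaction it gave each number of each genotype its own effect. Alternatives were other size factors, no filter, all transcripts, DESeq2 1.42.0, the replicate block, fits on the compared groups alone and leaving out each library.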

Additional observations from a re-analysis of the deposited data

How the results depend on the processing

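The counts of genes past the threshold depended on the fit. With the replicate block they were 1489 and 671 for neurites against soma in WT and het and 520 and 1696 for het against WT in soma and neurites; with DESeq2 they were 1146, 488, 320 and 1209. Fitting only the groups compared gave 40 in WT, 388 in soma and 0 in neurites. Using all transcripts of each table gave 230 in het neurites against soma. Leaving out a library gave 93 to 1081, 0 to 191, 0 and 0 to 1767 genes in the same order. Same-numbered libraries deviated together for WT neurites with soma and for the soma genotypes. In the other contrasts they did not all do so (lowest correlation -0.24 for het soma with neurites and -0.12 for the neurite genotypes). The block of the genotype contrasts spans all 4 groups and so includes these. It moved Ina in neurites to an adjusted p of 0.0295. Beside Ina in neurites and Vim in soma, the block changed no other call among the 8 genes' genotype contrasts.

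Of the tested values of the 8 genes, 288 kept direction and side of the threshold, 6 lost a call and 6 gained one. Vim in neurites had an adjusted p of 0.0531 with DESeq2-type size factors and 0.216 in the compared groups alone; Vim in soma passed with DESeq2 (0.0298) and in the compared groups alone (0.0285). With a library left out, 25 values turned sign: the ranges were -0.08 to 0.35 for Nefm and -0.14 to 0.26 for Nefh in het against WT in neurites. In the interaction they were -0.16 to 0.08 for Vim, -1.98 to 0.54 for Gfap, -0.10 to 0.22 for Nefl, -0.28 to 0.15 for Nefm, -0.26 to 0.15 for Nefh, -0.01 to 0.20 for Prph and -0.02 to 0.38 for Ina. The calls on Des, Lmna, Lmnb1, Krt80, Cryab and Hspb8 were lost when only the compared groups were fitted. The cause was not tested. Low counts limit Gfap, and DESeq2 gave it no adjusted p.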
